A study of Solanum lycopersicum with 3 samples.

Results

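The proteins of the cytosolic ribosome were followed as a group in ripe tomato fruit that carried a citrus lycopene β-cyclase transgene. Their probes were those on the TOM2 array whose gene description names the 40S or the 60S subunit, or an acidic ribosomal protein, and makes no mention of a plastid, a mitochondrion, or the 30S and 50S subunits. This rule found 124 of the 11863 gene probes, 53 for the 40S and 71 for the 60S subunit, and 8 of the latter stand for acidic proteins of the ribosomal stalk. The rule used no measured value. The descriptions hold 49 different protein names, and each member has 1 spot on the array.

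The cytosolic ribosome makes the proteins that the nuclear genome encodes. Its small subunit, 40S, binds the mRNA and reads the codons, and its large subunit, 60S, joins the amino acids and holds the tunnel through which the new chain leaves. Each subunit is built on ribosomal RNA with a single copy of nearly every protein, the acidic stalk proteins being the exception. In plants a ribosomal protein is usually encoded by several closely related genes, and mRNAs of ribosomal proteins are abundant in most tissues.

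Fruits of Lycb-1 were compared with fruits of the wild type, the tomato cultivar Zhongshu No. 5 from which the transgenic plants were made. Lycb-1 plants carry the whole coding region of the citrus gene under the constitutive CaMV 35S promoter together with a kanamycin resistance gene, and the plants used here descend from 1 primary transformant. Ripe fruit was taken 10 days post breaker and deseeded. A biological pool held 4 to 5 fruits from 3 plants, and each of the 3 arrays carried 1 pool of each genotype, Lycb-1 in Cy5 and wild type in Cy3. No array exchanged the dyes, so that a dye effect cannot be told apart from the genotype, nor can an effect of the single line. In such pools, fewer cells of a type and less RNA per cell cannot be told apart either.

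A ratio given here is log2 of the Lycb-1 signal over that of wild type, normalised by print-tip loess, which removes the trend of the ratio with the signal within each printed block of the array. A value of 1 is a doubling and a value below 0 is a lower signal in Lycb-1. Probes were tested where the brighter channel reached 400 on all 3 arrays, and 5720 probes met this limit. For comparison, 99% of the empty spots had signals of at most 34 in either channel. The labelled tissue was checked against ripe-fruit genes. Of 18 such probes 15 were tested. Both probes of E4 had a median log2 ratio of 2.70, the fruit-specific protein was at 1.99 and polygalacturonase 2A at 1.89, while the 7 tested probes of E8 had a median of 0.38 (lowest −0.10) and the 4 of phytoene synthase 1 ran from −0.26 to 0.87. Of 6 probes for seed storage and oil body proteins 3 were tested, although the fruits were deseeded, with log2 ratios from −1.45 to 1.68. Of 50 probes for green tissue 26 were tested. The 21 of chlorophyll a/b-binding proteins had a median log2 ratio of −1.47 and ran from −2.26 to 0.34, and the 5 of the RuBisCO small chain had a median of −0.10 and ran from −0.63 to 1.02. What part differences in ripening or in tissue makeup had in the ribosomal values was not tested.

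Of the 124 members, 94 were tested, 44 of the 40S and 50 of the 60S subunit, and these cover 48 of the 49 protein names. The name without a tested probe is L13a, a protein of the large subunit, whose only probe had a highest signal of 174. Another 24 of the 30 members left out were likewise below the limit on every array, 1 of the 30 reached it on 1 array and 4 reached it on 2. The 4 are a probe of S23 (SGN-U213165), a probe of L34 (SGN-U221021), a probe of L9 (SGN-U213857) and a 60S probe without a protein number (SGN-U221670). S23, L34 and L9 each have another probe that was tested. The untested members enter no count or median that follows.

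No cytosolic ribosomal protein differed between Lycb-1 and wild type at an adjusted p under 0.05. The lowest adjusted p of a member was 0.231 and the highest 0.991 (limma, two-sided, Benjamini-Hochberg adjustment over all 5720 probes). Calls were rare on these arrays as a whole, at 3 probes or 0.0524% of those tested, so that 0 of 94 is close to the background. At an unadjusted p under 0.05 by the same fit 3 members were lower and 6 higher. The shares are 3.19% and 6.38% of the members, beside 8.62% lower and 6.82% higher among all tested probes. An ordinary one-sample test of the 3 ratios, the methods' t-test, also left 0 members after adjustment. Before it, this test gave 4 lower (4.26%) and 10 higher (10.6%), beside 5.66% and 5.05% of all tested probes.

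The members had small ratios. Their means ran from −0.63 to 0.81, and 0 of 94 lay beyond 2-fold in either direction, beside 6.28% of all tested probes and 6.29% of the 1430 brightest of them. With arrays only centred on their median 4 members lay beyond 2-fold, all higher and all of the 60S subunit (L6, L18a, L13 and L36, with means of 1.01 to 1.05), beside 7.92% of all tested probes. The count was 5 of 119 with no filter on dim spots, which brings in members under the limit, beside 10.3% of all probes. Without replicate 3 it was 1 of 95, beside 9.84%. The standard deviation of the means was 0.319 over the members and 0.549 over all tested probes. The limma standard error of a member had a median of 0.201 and that of all tested probes one of 0.219. Limma draws these errors, called moderated, towards a value shared by all probes. Their likeness therefore does not show how precisely the members were measured. For 78 of the 94 members, 35 of the 40S and 43 of the 60S, the whole 95% interval of the mean stayed within 2-fold. With print-tip loess a change of 2-fold was thus outside the interval of most members, while the interval of the other 16 reached that size. These intervals do not cover the choice of normalisation or a dye effect. For L13 (SGN-U213294) the interval ended at 0.97, and its mean by median centring was 1.01.

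**Figure D1:**
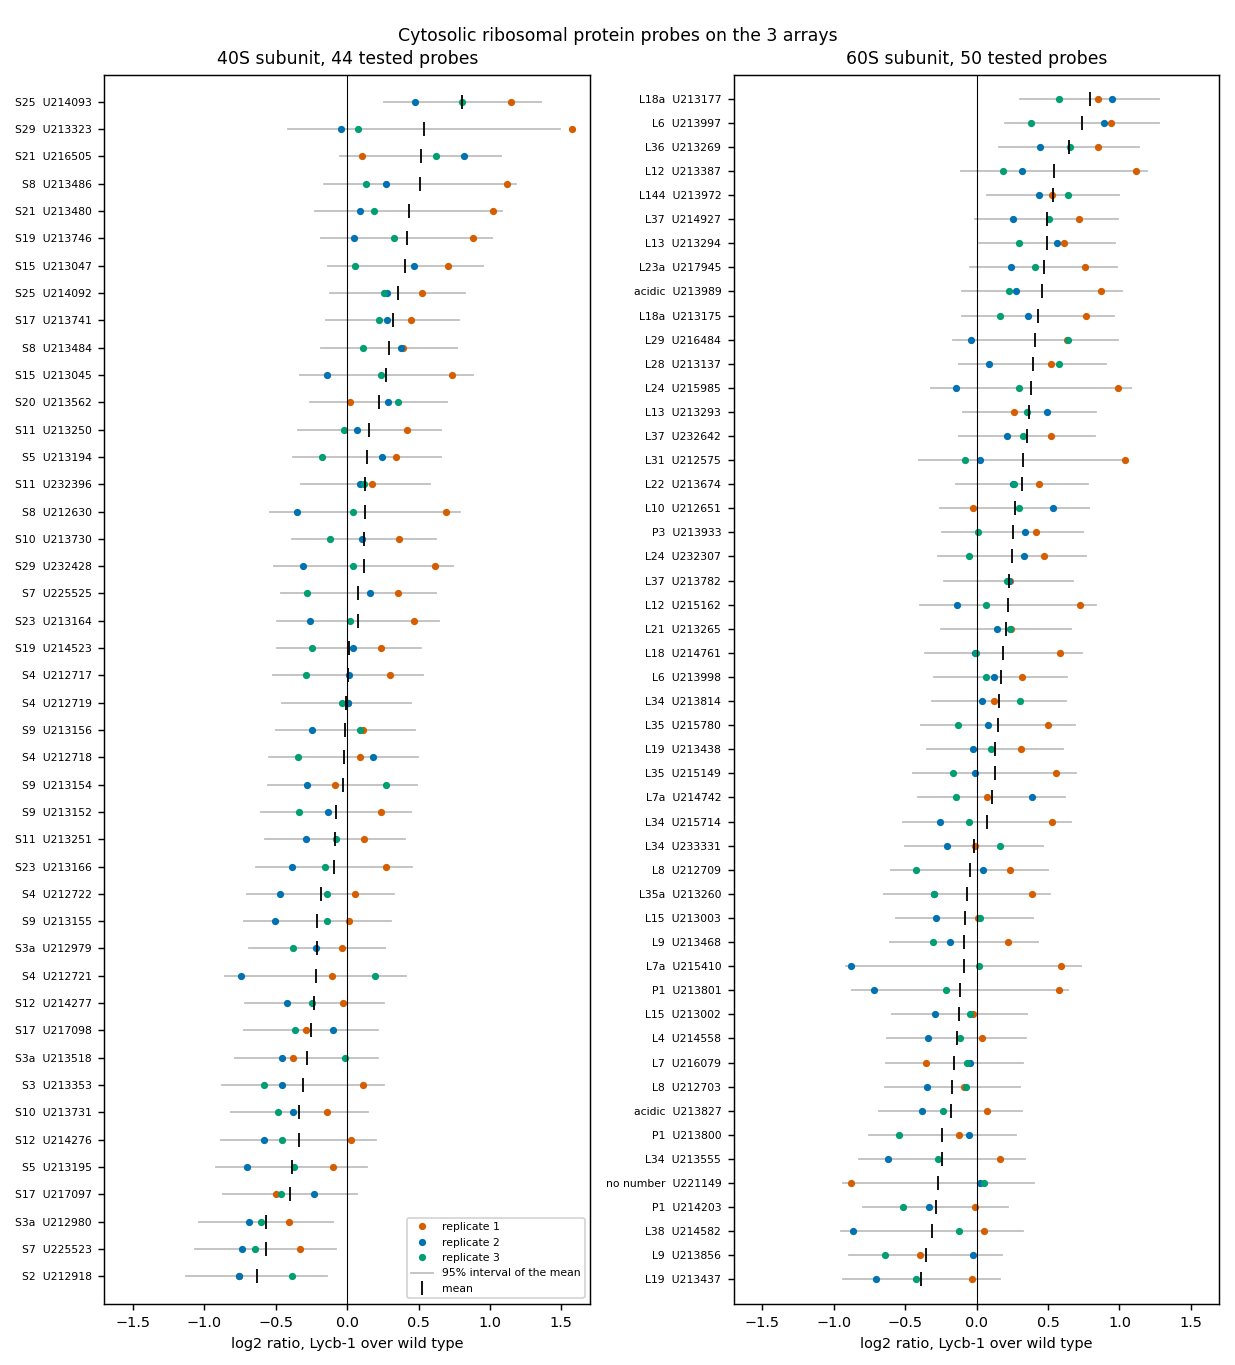
Print-tip loess log2 ratio, Lycb-1 over wild type (horizontal axis), of the 44 tested 40S probes and the 50 tested 60S probes, ordered by their mean. Dots are the 3 arrays, the upright mark is their mean and the grey line the 95% interval of the mean from limma. Of the 40S means 22 lie above 0 and 22 below, while 31 of the 60S means lie above 0, and replicate 1 is the highest dot for 69 of the 94 members. With each array only centred on its median, 39 of the 40S and 45 of the 60S means lie above 0.

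Both subunits together, 17 members had ratios below 0 on every array, which is 18.1% of those tested, beside a background of 21.3% of all tested probes. Higher on all 3 arrays were 30 members, or 31.9%, beside a background of 20.4%. The remaining 47 differed in direction between arrays. Of the 60S members 19 (38%) were higher and 7 (14%) lower on every array, and of the 40S members 11 (25%) were higher and 10 (22.7%) lower. Whether the subunits differ was not tested. With each array only centred on its median, 55 members (58.5%) were higher and 2 (2.13%) lower on every array. The background moved the same way, to 32.0% higher and 12.7% lower.

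The median ratio of the 40S members was within 0.01 of 0, with 0.15, −0.14 and −0.06 on the arrays of replicates 1, 2 and 3. The median of the 60S members was 0.16, with 0.40, 0.03 and 0.04. Medians of all tested probes were −0.01, 0.00 and −0.02 on the same arrays. The 60S median leaned on replicate 1, and it was 0.04 when that array was left out, where the 40S median was −0.10. It was 0.21 without replicate 2 and 0.23 without replicate 3. On all 3 arrays the 60S median lay above the 40S median, by less on replicate 3 than on the others.

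The array of replicate 1 stood above the others. There, 72 of the 94 had a ratio above 0, beside 45 and 47 on the arrays of replicates 2 and 3. Across the members the ratios of replicates 1 and 2 had a Pearson r of 0.46, those of replicates 1 and 3 an r of 0.55, and those of replicates 2 and 3 an r of 0.61. Over all tested probes the same correlations were 0.38, 0.30 and 0.16. These are descriptions over probes, which share their arrays and are not independent replicates.

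**Figure D2:**
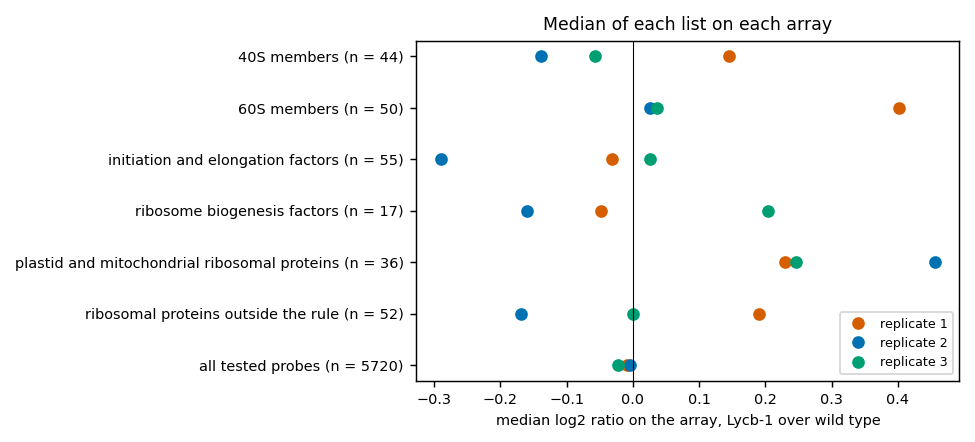
Median log2 ratio of Lycb-1 over wild type on each array (horizontal axis) for the 40S and 60S members, 4 further lists of the translation machinery and all 5720 tested probes; each dot is 1 array. The 60S median of replicate 1 is 0.40, far from the other arrays at 0.03 and 0.04, and the plastid and mitochondrial ribosomal proteins lie between 0.23 and 0.46.

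Among the 40S proteins the highest mean belonged to S25, a protein of the head of the subunit that initiation at certain viral mRNAs needs in yeast and mammals. Its probe SGN-U214093 had signals of 1293, 1585 and 2011 in Lycb-1 and of 648, 994 and 1074 in wild type on the arrays of replicates 1, 2 and 3. Lycb-1 was brighter on every array, and the lowest Lycb-1 signal stood above the highest wild type signal. The log2 ratios were 1.14, 0.47 and 0.80, with a mean of 0.81 ± 0.21 (moderated SE from limma, n = 3) or 1.75-fold. This was the only 40S member with a higher signal at an unadjusted p under 0.05 by limma, and it did not pass after Benjamini-Hochberg adjustment (adjusted p = 0.244). The other tested S25 probe had a mean of 0.35.

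S21, which the small subunit needs for its maturation in yeast, had both of its tested probes among the 5 highest. For SGN-U216505 the log2 ratios were 0.11, 0.81 and 0.62, with a mean of 0.51. For SGN-U213480 they were 1.02, 0.09 and 0.19, with a mean of 0.43. Every array placed both probes above 0, but the array with the greatest ratio was not the same for them. S8, a protein of the body of the subunit, reached 0.51 with its probe SGN-U213486, from 1.12, 0.27 and 0.13. S29, a small zinc-binding protein of the head, had 1.57, −0.04 and 0.08 with SGN-U213323. Its mean of 0.54 therefore came from replicate 1 alone, and its standard error of 0.371 was the highest of all members.

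The lowest 40S member was S2, a protein beside the entry of the mRNA channel that affects the accuracy of decoding in yeast. The signals of SGN-U212918 were 11630, 12642 and 11590 in Lycb-1 and 13828, 15983 and 12419 in wild type, lower in Lycb-1 on each array. The log2 ratios were −0.76, −0.76 and −0.38, with a mean of −0.63 ± 0.19 (moderated SE from limma, n = 3), which is 0.645 times the wild type level. S3a, on the platform of the subunit near the place where mRNA leaves, had −0.41, −0.69 and −0.60 with SGN-U212980, and S7 had −0.33, −0.74 and −0.65 with SGN-U225523. Their means were both −0.57. These are the only 3 members lower at an unadjusted p under 0.05 by limma, and their adjusted p were 0.272, 0.282 and 0.289. The 3 make up 6.82% of the 40S members, beside the 8.62% of all probes given above. S7 turned to 0.09 when arrays were only centred on their median, where S2 stayed at −0.18 and S3a at −0.06.

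S17 and S5 complete the lower end of the small subunit. S17 had the brightest 40S spot, SGN-U217097, with 32449, 31126 and 28393 in Lycb-1 and 26150, 22034 and 24956 in wild type. The measured signal was thus greater in Lycb-1 on every array, whereas the ratio after loess was lower on every array, at −0.50, −0.23 and −0.47. Its mean was −0.40 after print-tip loess and 0.38 by median centring. S5, which lines the mRNA exit and the site of the leaving tRNA, had −0.10, −0.70 and −0.37 with SGN-U213195, a mean of −0.39 that became 0.11 by median centring. For these 2 bright probes the direction thus depended on the normalisation.

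Among the 60S proteins L18a stood highest, and it had the lowest adjusted p of all members. Its probe SGN-U213177 had signals of 5061, 6532 and 5267 in Lycb-1 and of 2404, 3074 and 2990 in wild type, so that the lowest Lycb-1 signal stood well above the highest of wild type. The log2 ratios were 0.85, 0.95 and 0.58, with a mean of 0.79 ± 0.19 (moderated SE from limma, n = 3) or 1.73-fold (adjusted p = 0.231 by limma). Its 95% interval ran from 0.31 to 1.28. The other tested L18a probe had a mean of 0.43 and was also above 0 on each array.

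L6, a protein of the outer face of the large subunit, had signals of 11961, 10919 and 11199 in Lycb-1 and of 5189, 4623 and 7589 in wild type with SGN-U213997. The log2 ratios of 0.94, 0.89 and 0.38 gave a mean of 0.74, with replicate 3 lower than the others. L36 had 0.85, 0.44 and 0.65 with SGN-U213269 and a mean of 0.65. A protein that the array calls L144 had 0.53, 0.43 and 0.64 with SGN-U213972, the narrowest spread among the 5 highest, and a mean of 0.53. Signals of L36 and L144 were also greater in Lycb-1 than in wild type on each array. L12, which forms the base of the stalk with P0, had 1.12, 0.31 and 0.18 with SGN-U213387 and a mean of 0.54 that leans on replicate 1.

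Of the 60S members 5 were higher at an unadjusted p under 0.05, namely L18a, L6, L36, L144 and L13, the last with a mean of 0.49 and named here because it completes the count. The 5 are 10% of the 60S members, beside 6.82% of all tested probes. Their adjusted p lay between 0.231 and 0.316 in the limma fit. None of the 60S members was lower at that level. When replicate 1, 2 or 3 was left out, 1 (1.96%), 2 (3.92%) and 3 (5.88%) of the 60S members were higher at that level, beside 3.64%, 3.81% and 6.70% of all tested probes. By median centring 18 (36%) were, beside 13.8%.

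The lowest 60S mean was that of L19, which reaches across to the small subunit as a bridge. Its probe SGN-U213437 had −0.03, −0.70 and −0.42, with a mean of −0.39, and 0.25 by median centring. L9, close to the base of the stalk, had −0.40, −0.03 and −0.64 with SGN-U213856 and a mean of −0.36. L38, whose loss in mice alters the body plan of the embryo, had 0.05, −0.86 and −0.12 with SGN-U214582. Its mean was −0.31 and turned to 0.12 by median centring. A 60S probe without a protein number, SGN-U221149, had −0.88, 0.03 and 0.05, so that its mean of −0.27 rests on replicate 1 and became 0.04 without it. In these 4 the arrays differed by more than the mean differed from 0, and their unadjusted p in limma were 0.130 or more.

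Large-subunit proteins with known roles near the active parts of the ribosome had intermediate values. L10, which sits beside the catalytic centre and takes part in antiviral signalling in Arabidopsis, had −0.03, 0.53 and 0.30 with SGN-U212651 and a mean of 0.27. L24 forms a bridge between the subunits and is needed in Arabidopsis to translate mRNAs with upstream reading frames. Its probe SGN-U232307 had 0.47, 0.33 and −0.05 and a mean of 0.25. A second probe described as L24, SGN-U215985, is paired with another Arabidopsis locus in the array files. It had 0.99, −0.14 and 0.30 with a mean of 0.38. Loci of the L10 and L24 probes were not matched to the Arabidopsis genes with the antiviral and reading-frame roles. Those roles may therefore not apply to the probes. L4, which reaches into the exit tunnel, had 0.04, −0.34 and −0.12 with SGN-U214558, with a mean of −0.14 that was 0.21 by median centring. L7a, the brightest 60S probe (SGN-U214742), had 0.07, 0.39 and −0.14 and a mean of 0.11, which was −0.05 with a loess over the whole array and −0.03 without replicate 2. The 95% interval of each of these 5 probes includes 0.

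The acidic proteins P1, P2 and P3 hang on P0 in several copies and form the flexible stalk that brings translation factors to the ribosome. P3 is found in plants. Of their 8 probes 6 were tested, 4 with a mean below 0 and 2 above, and their median was −0.15, with 0.24 on replicate 1 and −0.19 and −0.23 on replicates 2 and 3. The 3 probes of P1 all had means below 0. SGN-U214203 had −0.01, −0.33 and −0.51 with a mean of −0.29, and SGN-U213800 had −0.12, −0.05 and −0.55 with a mean of −0.24. SGN-U213801 had 0.58, −0.72 and −0.22, and its mean of −0.12 became 0.18 without replicate 2. The probe of P3, SGN-U213933, had 0.41, 0.34 and 0.01 with a mean of 0.25.

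The remaining acidic probes carry no number. SGN-U213827 had 0.08, −0.38 and −0.24, a mean of −0.18 that became 0.23 by median centring, as SGN-U213800 became 0.12. SGN-U213989 had 0.87, 0.28 and 0.22 and a mean of 0.46. It was a dim spot, with 608, 648 and 555 in Lycb-1 and 357, 676 and 508 in wild type, and 1 of only 2 tested members with a channel under 400 on any array. The other such member is a probe of L22. Adjusted p of the acidic proteins were 0.384 to 0.867 in limma. P0 itself (SGN-U213207), whose description lacks the subunit and which was chosen after its values were seen, had −0.20, −0.27 and 0.10 and a mean of −0.12.

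Several probes of 1 protein gave a check within the group, since each stands for another unigene of the same name. Of the 30 numbered proteins with at least 2 tested probes, 20 had all their probes on the same side of 0 and 10 had probes on both sides. Closely related genes may share hybridisation, and how far the probes of a protein read separate mRNAs was not tested. Of 9 proteins with 3 or more probes, S8 and L37 had all means above 0, from 0.13 to 0.51 and from 0.22 to 0.49. S9, S3a and P1 had all means below 0, from −0.21 to −0.01, from −0.57 to −0.21 and from −0.29 to −0.12. The 5 probes of S4 lay between −0.22 and 0.01, those of S11 between −0.08 and 0.15, and those of L34 between −0.24 and 0.15. By median centring all 4 S9 probes turned above 0, to means of 0.06, 0.36, 0.37 and 0.41. So did 2 of the 3 S3a probes, to means of 0.01 and 0.04, and SGN-U213800 of P1, to 0.12.

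S17 had the widest gap between its probes, 0.72. SGN-U213741 had 0.45, 0.28 and 0.22 with a mean of 0.32, while SGN-U217097 had the values given above and SGN-U217098 a mean of −0.25. The arrays of the first did not overlap those of the other probes. By median centring SGN-U213741 was at 0.47 and SGN-U217097 at 0.38, so that the gap between these probes was nearly closed, and SGN-U217098 stayed below 0 at −0.16.

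**Figure D3:**
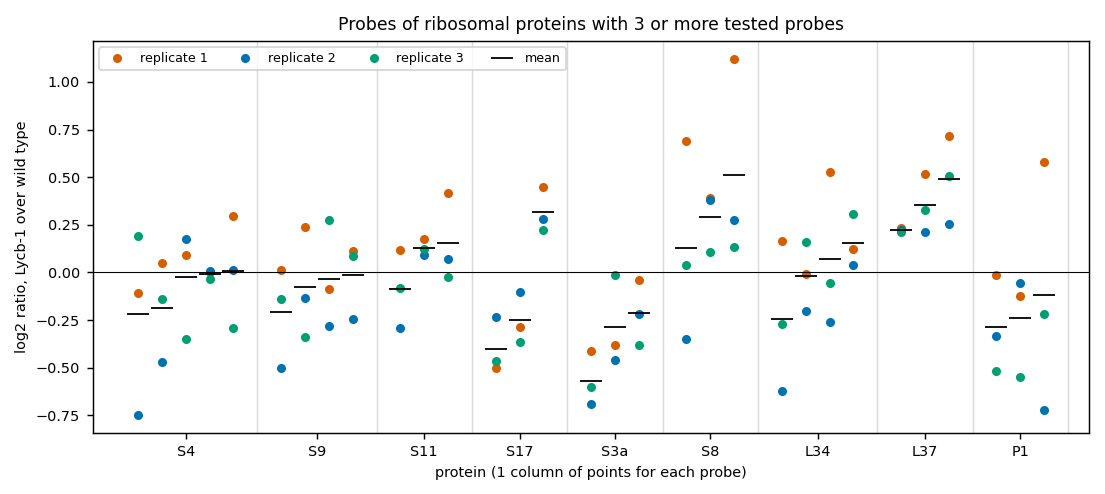
Print-tip loess log2 ratio, Lycb-1 over wild type (vertical axis), for the 9 proteins with 3 or more tested probes; each column of dots is 1 probe, the dots are its 3 arrays and the bar is their mean. S8 and L37 have all means above 0, S9, S3a and P1 all below, and the S17 probes lie as far apart as −0.40 and 0.32. By median centring SGN-U217097 of S17 is at 0.38 and 2 of the S3a probes are just above 0. All S9 probes, from 0.06 to 0.41, and SGN-U213800 of P1, at 0.12, are then above 0 as well.

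Ribosomal proteins whose descriptions name no subunit fell outside the rule, and 52 of their 68 probes were tested. None of them passed the adjusted threshold in limma, and their median was 0.02. At an unadjusted p under 0.05 by the same fit 2 were lower and 2 higher, beside 8.62% and 6.82% of all tested probes. Higher on all 3 arrays were 10 (19.2%) and lower 12 (23.1%), beside 20.4% and 21.3% of all tested probes. Split by number after the values were seen, the 32 L-numbered ones had a median of 0.00, where the 60S members had 0.16. Of the 32 L-numbered ones 8 (25%) were higher and 8 (25%) lower on every array. The 13 S-numbered ones had a median of 0.06, with 2 (15.4%) higher and 2 (15.4%) lower on every array. The S-numbered median thus lay above the L-numbered one, whereas among the members the large subunit had the higher median. Whether the S-numbered and L-numbered ones differ was not tested. The 2 largest ratios in this list belonged to L25, which lies at the tunnel exit (SGN-U214520, 0.68), and to L30e (SGN-U214351, 0.67). S6, the target of the kinase S6K in the TOR pathway, had 0.06, 0.05 and 0.16 with SGN-U213056, the mean being 0.09. Probes of L5 and L11, which carry the 5S ribosomal RNA, and of L3 had means from −0.13 to 0.50. For some of them the arrays differed widely. SGN-U212551 of L11 had 2.34, −1.34 and −0.19, and SGN-U218887 of L3 had 0.46, 0.41 and −0.55. S6, L5, L11 and L3 were chosen after their values were seen.

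Other parts of the translation machinery had no gene past the adjusted threshold either. Of 55 tested initiation and elongation factors, out of 68 on the array, 0 passed. At an unadjusted p under 0.05 in limma 1 was lower and 1 higher, beside 8.62% and 6.82% of all tested probes. The median of these factors was −0.03. Extremes were a subunit of eIF3, which brings the small subunit to the mRNA (SGN-U219427, 0.65), and an EF-1α-like factor, which delivers aminoacyl-tRNAs (SGN-U232157, −0.55). Of 17 tested ribosome biogenesis factors, out of 20, 0 passed, with a median of 0.06. At an unadjusted p under 0.05 in limma 1 was lower and 0 were higher, beside the same 8.62% and 6.82%. Bystin, needed in yeast to make the small subunit, had −1.01, −0.41 and −0.63 with SGN-U216327 and a mean of −0.68. A nucleolar phosphoprotein (SGN-U220103) had a mean of −0.37.

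The ribosomal proteins of plastids and mitochondria, which serve the ribosomes inside those organelles, were also followed. Of 40 probes 36 were tested. On all 3 arrays 18 (50%) were higher and 3 (8.33%) lower in Lycb-1, beside 20.4% and 21.3% of all tested probes. The median of the list was 0.28, with 0.23, 0.46 and 0.25 on the arrays of replicates 1, 2 and 3. At an unadjusted p under 0.05 in limma 8 were higher and 0 lower, beside 6.82% and 8.62% of all tested probes. After adjustment 0 of the list passed, the lowest adjusted p being 0.193. The 50S protein L15 (SGN-U215121) had 1.26, 1.96 and 0.56 with a mean of 1.26, and the chloroplast 50S protein L28 (SGN-U217685) had 0.92, 0.98 and 0.79 with a mean of 0.90. The organelle median stood above both cytosolic ones after print-tip loess, but not above the 60S median by median centring (0.38 beside 0.44) or without replicate 2 (0.16 beside 0.21). The difference between the lists was not tested.

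Most members were bright spots. The direction of 37 of the 94 tested members differed between normalisations, while 57 kept theirs under all 5 that were tried. Of the 94 tested members 60 (63.8%) were among the 1430 brightest of the 5720 tested probes, and their mean log2 signal had a median of 12.7, beside 10.9 for all. No member came within 1% of the top of the scale. Before any normalisation Lycb-1 in Cy5 was brighter for 39, 29 and 29 of the 44 40S members on replicates 1, 2 and 3 and for 47, 35 and 38 of the 50 60S members. Among all 5720 tested probes Lycb-1 was brighter for 3370, 3198 and 3269 on the same arrays. Centred on the median alone, ratios of all tested probes climbed with the signal, from a median of 0.03 in the 1430 dimmest through 0.10 and 0.14 in the next bins of that size to 0.33 in the brightest. After print-tip loess these medians were between −0.02 and 0.01.

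With median centring the 40S median was 0.37, with 39 means above 0 and 5 below, and the 60S median 0.44, with 45 above and 5 below. The 1430 brightest probes were at 0.33 under the same setting, and all tested probes at 0.15, but the members had higher medians than all probes of like signal throughout. From the dimmest 1430 probes to the brightest, the 3, 8, 23 and 60 members had median-centred medians of 0.33, 0.20, 0.42 and 0.41, and after print-tip loess 0.32, 0.07, 0.25 and 0.01. These differences from other probes were not tested. A print-tip loess fitted without the members left 40S at 0.01 and 60S at 0.17. Under the 5 normalisations (print-tip loess with and without the members, global loess, median centring and the deposited ratio), 18 40S and 29 60S members kept a mean above 0, and 5 and 5 kept one below. Whether the bright spots were raised in Cy5 by the dye or in Lycb-1 by the genotype cannot be told apart.

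**Figure D4:**
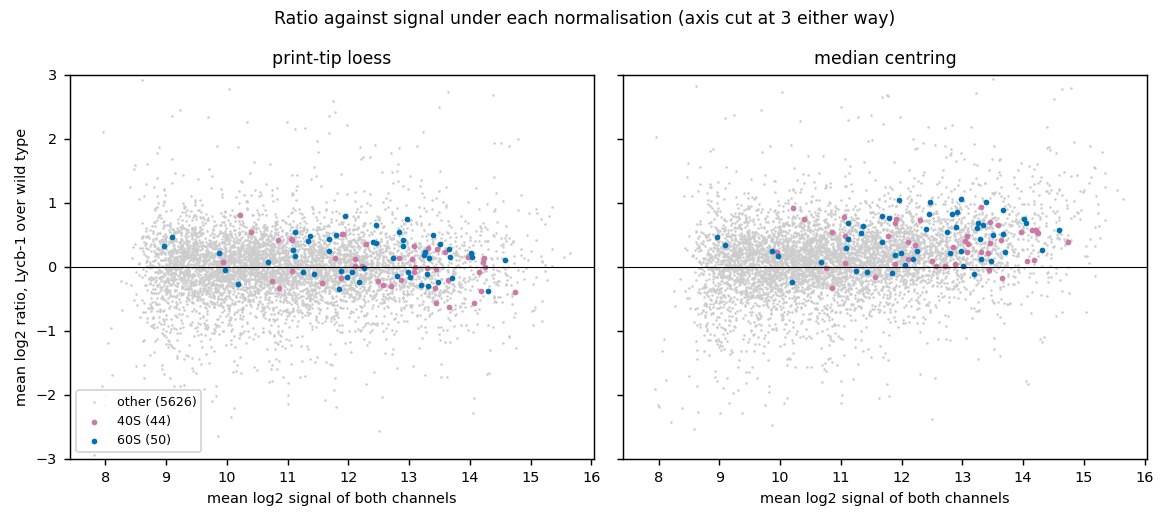
Mean log2 ratio of Lycb-1 over wild type (vertical axis, drawn to 3 either way, with 10 probes beyond it at the left and 13 at the right) against the mean log2 signal of both channels (horizontal axis) for 44 40S members, 50 60S members and 5626 other tested probes, after print-tip loess (left) and after median centring (right). The members sit mostly at the bright end, where the cloud of all probes is centred on 0 at the left and lies above 0 at the right, with a median of 0.33 over the 1430 brightest.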

How the data were processed

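The authors deposited, for each spot, the intensity of both channels after background subtraction, as read by LuxScan 10KA and ImaGene, together with a Lycb-1 to wild type ratio, for which they used marray and its print-tip lowess. The value table that the authors deposited holds log2 of that ratio (largest difference 4.87e-09). Their lists of differentially expressed spots were not used.

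From the intensities, ratios were normalised with limma 3.58.1 under R 4.3.3. A print-tip loess was run within each of the 48 blocks (286 spots each), to which control spots gave no weight. Control and empty spots were then left out, spots with at least 400 in the brighter channel on all 3 arrays were kept, and spots of 1 probe were averaged. The mean ratio of each of 5720 probes was tested against 0 with lmFit and eBayes, two-sided, with Benjamini-Hochberg adjustment and a threshold of 0.05. An array carries both genotypes of a replicate, so the model pairs them by construction. Standard errors are the moderated ones of limma, which draws the variance of each probe towards a value shared by all probes. They are not the plain standard errors of 3 ratios. Intervals used 2 residual and 3.06 prior degrees of freedom. P-values measure the spread between 3 pools of 1 line. There are no read counts behind these values, and the precision is limited by having 3 arrays.

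The members and lists were chosen with earlier results of these data known. Named were the 5 highest and 5 lowest means of each subunit, every acidic protein, members with known roles, the brightest member of each subunit, proteins with 3 or more tested probes by their range, and the 2 largest ratios of each other list. Names are those of the array files. A RefSeq table of locus tags matched 0 of the member probes, so no position or sequence is given. Scripts were tested on simulated data, and figures were drawn with matplotlib 3.10.9. Other choices of normalisation, starting values, filter, averaging, variance model, test and pairing were tried, as were fits without each array and without the brightest spots.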

Additional observations from a re-analysis of the deposited data

How the results depend on the processing

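Across 14 alternatives 0 members passed the adjusted threshold, with a lowest adjusted p between 0.121 (median centring) and 0.517 (without replicate 1). Of 419 values of the 30 named members under these alternatives, 407 kept their direction and 12 turned. Median centring made the most difference. It gave medians of 0.37 for 40S, 0.44 for 60S, 0.16 for initiation and elongation factors and 0.31 for ribosomal proteins outside the rule. It put 55 members (58.5%) higher and 2 (2.13%) lower on all 3 arrays, beside 32.0% and 12.7% of all tested probes. It also gave 26 higher (27.7%, beside 13.8% of all tested probes) and 0 lower (beside 5.56%) at an unadjusted p under 0.05 in limma. It turned S5 (SGN-U213195) to 0.11, S17 (SGN-U217097) to 0.38, S7 (SGN-U225523) to 0.0934, L4 (SGN-U214558) to 0.21, SGN-U213827 to 0.23, SGN-U213800 to 0.12, L38 (SGN-U214582) to 0.12 and L19 (SGN-U213437) to 0.25. L7a (SGN-U214742) turned to −0.0520 with a global loess. With 1 array left out, L7a ran from −0.0342 to 0.23, P1 (SGN-U213801) from −0.47 to 0.18 and SGN-U221149 from −0.43 to 0.0384.

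The counts at an unadjusted p under 0.05, 3 lower and 6 higher, also moved. Lower members were 1 with a global loess (1.06%, beside 8.69% of all probes) and 5 with no filter on dim spots (4.20%, beside 6.71%). Higher members were 10 by the ordinary one-sample t-test (10.6%, beside 5.05% of all probes) and 3 with no replicate block (3.19%, beside 4.18%). The latter setting ignored the pairing of the channels on an array. With 1 array left out, 0 to 1 members were lower (0% to 1.05%, beside 6.004% to 7.51% of all probes). In the same fits 2 to 4 were higher (2.08% to 4.21%, beside 3.64% to 6.70%). On both remaining arrays 17 to 34 members were lower (17.9% to 35.4%, beside 31.2% to 32.5% of all probes) and 34 to 44 higher (35.4% to 46.3%, beside 28.2% to 30.6%). Medians then ran from −0.10 to 0.12 for 40S and from 0.04 to 0.23 for 60S. The gap of 0.16 between the subunits' medians was 0.07 by median centring and 0.05 with no filter on dim spots. The cause of these shifts was not tested.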
